A study of Mus musculus with 9 samples.

Results

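The hypoxia-response genes described here are 9 textbook targets or regulators of the cell's oxygen response: Adm, Bnip3, Ndrg1, Vegfa, Egln3, Slc2a1, Pdk1, Pfkfb3 and Hif3a. They were looked up by gene symbol among the 38911 genes of a table of sequencing counts from mouse hippocampus, and all 9 were found. The study divided adult BALB/c mice, kept free of specific pathogens, into 3 groups of 3. The CTL group had a sham operation. The SAE group had cecal ligation and puncture (CLP), an operation that lets gut bacteria into the abdomen and causes sepsis, and no other treatment. The CCLF group had CLP and also received CCLF, a flavonoid preparation of the plant Cuscuta chinensis, at 200 mg/kg. The sources used here do not give sex, exact age or the time between surgery and sampling. Each library was made from total RNA of hippocampus after removal of ribosomal RNA.

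When oxygen falls, the prolyl hydroxylases of the EGLN family no longer mark hypoxia-inducible factor (HIF) alpha subunits for destruction by the von Hippel-Lindau protein. The stabilised subunit pairs with ARNT and binds hypoxia response elements, short promoter and enhancer sequences built around the letters RCGTG. Target genes widen and grow vessels, move glucose into cells, turn metabolism from mitochondria to glycolysis, and remove mitochondria. Several are also induced by inflammation or by glucocorticoid hormones, without low oxygen.

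Library totals ran from 4626519 to 4895474 counts. Some neuronal markers of hippocampus were abundant. Slc17a7, the vesicular glutamate transporter of excitatory neurons, had 5658 ± 130 CPM (counts relative to the scaled library total, mean ± SD, n = 3) in CTL and 6355 ± 67.6 in SAE. Wfs1, a marker of CA1 neurons, had 764 ± 95.4 and 726 ± 93.0. Of the 8 neuronal markers listed, 4 were tested, 2 were higher in SAE (Slc17a7, adjusted p = 8.32e-05, and Neurod6, adjusted p = 1.23e-05) and 0 lower. The summed level of the 8, mostly Slc17a7, was 7156 to 7374 CPM in CTL and 7913 to 8200 in SAE. Spink8 was at 0 in every library and Fibcd1 did not exceed 3 counts. Prox1 (3 to 11 counts) and Dkk3 (1 to 5) were also too low to be tested. The acute-phase gene Lcn2, which tissue raises in infection, had 13246 to 14822 counts in the libraries labelled CTL and 6 to 14 in those labelled SAE. That goes against the group names, so CTL and SAE below mean the libraries carrying those labels, and every direction rests on them. The CCLF columns also stood apart. In 4146 transcript rows with at least 600 counts, each CCLF count lay within the range of the 6 CTL and SAE counts in 99.6% of rows, against 59.6% to 76.5% for a CTL or SAE library within the range of the other 5. A CCLF count fell outside in 20 rows, and in all 20 a CTL count equalled a SAE count, as it did in 180 (4.3%) of all 4146 rows. What produced this was not tested, and CCLF values are given here without a test.

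The counts were unevenly divided between genes with 1 transcript and genes with several. The 20604 genes with 1 RefSeq transcript row held 90.0% of all counts, and the 18307 genes with several rows held the rest. Zeros were not particular to genes with several rows: 8909 genes with 1 row and 7156 with several had 0 counts in all 9 libraries. A mean of at least 10 counts was reached by 22.6% of genes with 1 row and 18.1% of genes with several. Adm, Bnip3, Ndrg1 and Egln3 have 1 row each. The other 5 have 2 to 14 rows.

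**Figure D1:**
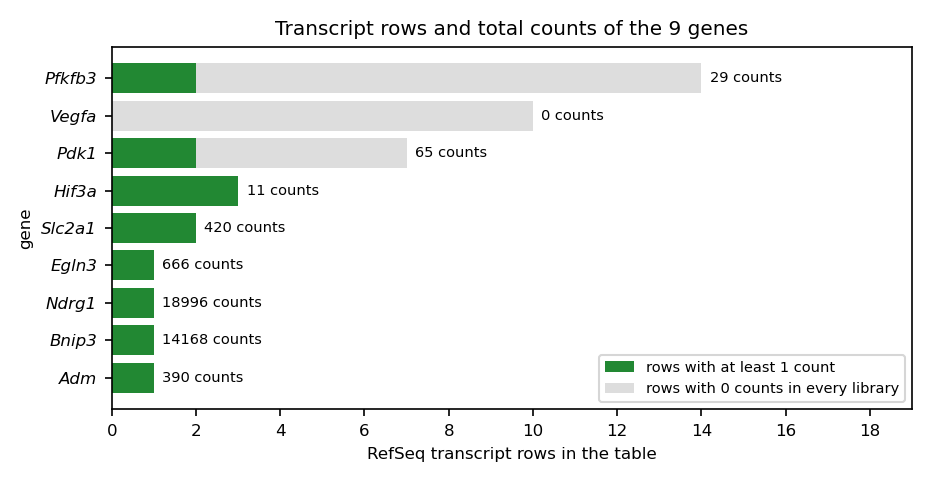
RefSeq transcript rows of each of the 9 genes in the table (horizontal axis), split into rows with at least 1 count and rows with 0 counts in every library; the text beside each bar is the total count over the 9 libraries. Pfkfb3 had counts in 2 of 14 rows and Vegfa in 0 of 10, while the 4 genes with a single row had 390 to 18996 counts.

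Vegfa, which encodes the main growth factor for blood vessels, had 0 counts in all 10 of its rows in every library. A count of 0 allows up to 3 counts over a group, a level of up to 0.212 CPM in CTL and 0.211 CPM in SAE, from counting error only. Its rows are alternative transcripts of 1 gene, and the part of read assignment among them in this 0 was not tested. Pfkfb3, whose enzyme makes the main activator of glycolysis, had 29 counts over 9 libraries, in 2 of 14 rows. Pdk1, the kinase that closes the pyruvate dehydrogenase gate into mitochondria, had 65 counts, of which 89.2% lay in a row with an accession of the non-coding type (XR). Hif3a, which encodes an alpha subunit with splice forms that oppose the other HIFs, had 11 counts over its 3 rows. These 4 genes fell below the count minimum and were not tested.

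Of the 5 genes tested, Ndrg1 was higher in SAE, Adm and Bnip3 were lower, and Egln3 and Slc2a1 did not pass (quasi-likelihood test of edgeR over all 8213 genes tested, called at a Benjamini-Hochberg adjusted p under 0.05). Called genes made up 47.6% of all genes tested, 23.7% higher and 23.9% lower. A count of 3 in 5 is read against that share and sets nothing apart. The median log2 fold (SAE minus CTL) of the 5 was −0.46, against 0.005 over all genes tested. This median of 5 is the fold of Slc2a1, which did not pass. The median size of the log2 fold, in either direction, was 0.37 over all genes tested. The genes that passed the count minimum were 5 of the 9 and do not stand for the other 4. In bulk tissue, fewer cells of a type and less RNA per cell cannot be told apart, and this holds for every fold below.

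**Figure D2:**
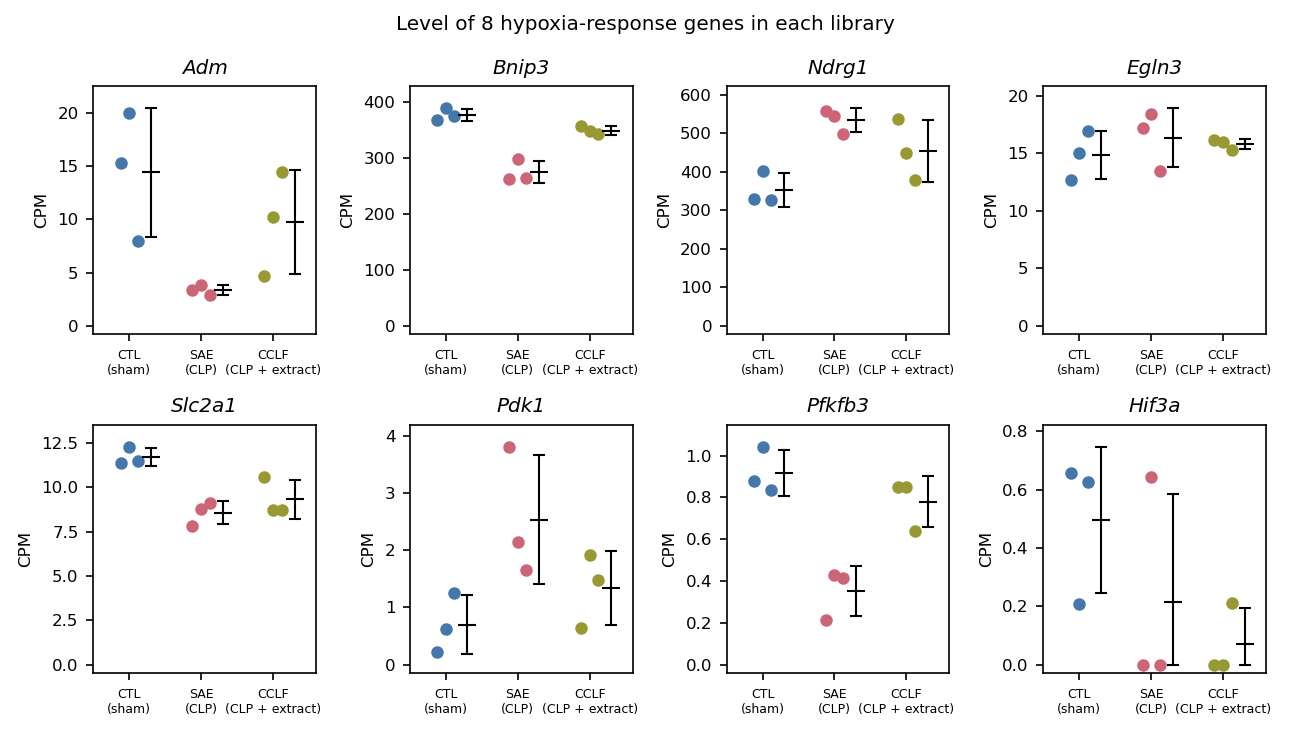
Level of each gene with counts (vertical axis, CPM, linear from 0) in the 9 libraries, by group; points are libraries, and the black mark with bars is the mean ± SD of 3 libraries, with the lower bar stopped at 0. The SAE points of Adm, Bnip3, Slc2a1 and Pfkfb3 lie below all CTL points, those of Ndrg1 and Pdk1 lie above them, and those of Egln3 and Hif3a overlap.

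Adm encodes adrenomedullin, a peptide secreted by vessel walls and glia that widens vessels and tightens the endothelial barrier. It had 70, 96 and 38 counts in CTL libraries 1 to 3, 16, 18 and 14 in SAE, and 22, 48 and 68 in CCLF. The CTL and SAE libraries did not overlap, and the CCLF counts lay above all SAE counts and below the highest CTL count. The level fell from 14.4 ± 6.09 CPM to 3.38 ± 0.481 (mean ± SD, n = 3), a log2 fold of −2.09 ± 0.32 (± SE, adjusted p = 5.35e-05), or 4.27-fold lower. Only 4.2% of the 8213 tested genes had a fold of larger size in either direction. The CTL libraries differed among themselves far more than counting allows: their coefficient of variation was 42.3%, where counting error alone gives 12.1%. In SAE it was 14.2%, below counting error. The fold ranged from −1.79 without CTL replicate 2 to −2.40 without CTL replicate 3, and the call held in both.

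Bnip3 encodes a protein of the outer mitochondrial membrane that marks mitochondria for removal by autophagy. Its counts were 1681, 1868 and 1793 in CTL, 1240, 1386 and 1274 in SAE, and 1681, 1635 and 1610 in CCLF. All SAE libraries were below all CTL libraries, and all CCLF libraries were above all SAE libraries. The level fell from 377 ± 10.9 to 274 ± 19.7 CPM, a log2 fold of −0.47 ± 0.05 (adjusted p = 1.07e-07). This is a change of 1.38-fold, and 40.8% of tested genes had a larger one. Its adjusted p was the smallest of the 5.

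Ndrg1 encodes a stress-induced protein of the alpha/beta hydrolase fold that is needed in myelinating glia. It had 1501, 1931 and 1565 counts in CTL, 2638, 2544 and 2410 in SAE, and 2524, 2108 and 1775 in CCLF. Every SAE library exceeded every CTL library, and the CCLF libraries lay between the lowest CTL and the highest SAE value. The level rose from 352 ± 43.2 to 534 ± 31.4 CPM, a log2 fold of 0.59 ± 0.08 (adjusted p = 0.000341), or 1.51-fold. Of all tested genes, 33.3% had a larger fold. It was the one tested gene of the 9 that rose.

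Egln3 encodes the prolyl hydroxylase PHD3, itself a HIF target that feeds back on HIF. It had 58, 72 and 81 counts in CTL, 81, 86 and 65 in SAE, and 76, 75 and 72 in CCLF. The groups overlapped. The log2 fold was 0.12 ± 0.18 with a 95% interval of −0.24 to 0.48 (adjusted p = 0.589). At a mean of 73.8 counts a change within this interval could not be resolved. The CCLF libraries varied by 2.78%, where counting error alone gives 11.6%, against 14.1% in CTL and 15.8% in SAE.

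Slc2a1 encodes GLUT1, the glucose transporter of the blood-brain barrier and of glia. Its counts were 52, 59 and 55 in CTL, 37, 41 and 44 in SAE, and 50, 41 and 41 in CCLF. The CTL and SAE libraries did not overlap, as was true of 4 of the 5 tested genes and of 55.7% of all tested genes. The level was 11.7 ± 0.501 CPM in CTL and 8.58 ± 0.663 in SAE, a log2 fold of −0.46 ± 0.19 with a 95% interval of −0.86 to −0.06. It did not pass the threshold (adjusted p = 0.0546). Of its 14 alternatives, it passed only in the fit of all 9 libraries, which also takes its spread from the CCLF columns (−0.45 ± 0.15, adjusted p = 0.0239). In those columns 14.7% of the 4146 well-counted rows had an SD under 0.2 of counting error, against 1.6% in CTL and 1.8% in SAE, so this call is not relied on.

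**Figure D3:**
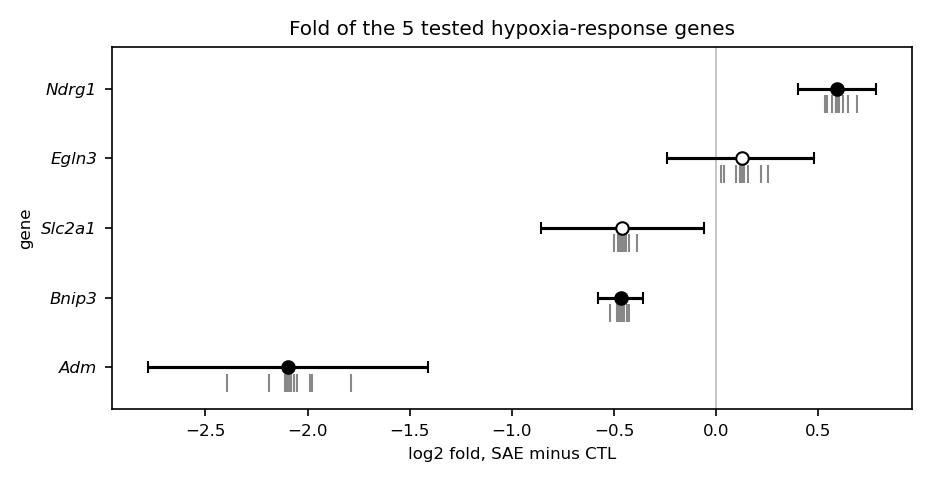
Log2 fold (horizontal axis, SAE minus CTL, 3 libraries each) of the 5 tested genes; circles are the fit with its 95% interval, filled where the adjusted p passed, and grey ticks are the folds under the other processing settings and with each library left out. Adm lies between −2.40 and −1.79 over these settings, and no tick of any of the 5 genes crosses 0.

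The genes below the count minimum are described by their counts. Pdk1 had 1, 3 and 6 counts in CTL, 18, 10 and 8 in SAE, and 3, 9 and 7 in CCLF. All SAE libraries were above all CTL libraries, and the SAE to CTL ratio of the summed counts was 3.56, with a 95% interval of 1.73 to 8.05 that covers counting error only. When the filter was dropped, Pdk1 had a log2 fold of 1.80 ± 0.56 (adjusted p = 0.00982). With CTL replicate 1 left out, it was 1.40 ± 0.60 (adjusted p = 0.0642). Pfkfb3 had 4, 5 and 4 counts in CTL, 1, 2 and 2 in SAE, and 4, 4 and 3 in CCLF. Its ratio of SAE to CTL was 0.381 with an interval of 0.106 to 1.14. Hif3a had 3, 1 and 3 counts in CTL, 0, 3 and 0 in SAE, and 0, 0 and 1 in CCLF, and its ratio of 0.424 had an interval of 0.0708 to 1.86. For Pfkfb3 and Hif3a the intervals include equal levels. All 24 CCLF counts of the 8 genes with counts lay within the range of their CTL and SAE counts. Each CCLF library did so in 99.6% of the 4146 well-counted rows. The CCLF positions given for each gene are therefore description only.

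Promoter letters were read for the tested genes from RefSeq sequence (build GRCm38.p6), to show what the lowered genes Adm and Bnip3 have before their start sites beside Slc2a1 and Egln3. Each stretch is given 5′ to 3′ on the gene's strand, with the matches of the core named on its line in capitals and any match of the other core left in lower case. The core was searched as ACGTG and as GCGTG in the 250 bases before the start site, on both strands (reverse complements CACGT and CACGC).

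Adm, GCGTG core, chr7:110627537-110627637, plus strand: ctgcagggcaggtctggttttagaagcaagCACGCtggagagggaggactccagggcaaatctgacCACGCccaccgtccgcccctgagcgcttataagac
Bnip3, ACGTG core, chr7:138909579-138909644, minus strand: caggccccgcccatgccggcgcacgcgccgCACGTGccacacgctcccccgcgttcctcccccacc
Slc2a1, ACGTG core, chr4:119108679-119108743, plus strand: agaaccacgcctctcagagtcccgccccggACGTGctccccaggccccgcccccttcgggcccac
Egln3, ACGTG core, chr12:54204069-54204124, minus strand: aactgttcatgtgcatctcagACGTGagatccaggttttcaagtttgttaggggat

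In the Bnip3 stretch the capitals are 2 overlapping ACGTG matches, 1 on each strand, and they begin 108 bases before the start site. Bnip3 also had 3 GCGTG cores, 117, 99 and 35 bases before it, of which the first pair lies in lower case in the printed stretch. The Slc2a1 ACGTG match begins 36 bases before the start, and a GCGTG core 61 bases before it is in lower case. The Egln3 window held 1 ACGTG match, 229 bases before the start, and no GCGTG. The Adm window held no ACGTG and 2 GCGTG cores, both on the other strand, 90 and 54 bases before the start. RefSeq windows were found for 8 of the 9 genes, Ndrg1 being the exception. Of their 11 windows, 9 (81.8%) held ACGTG or GCGTG, against 38.6% of all 32851 windows of that length. ACGTG alone was in 6 (54.5%), against 16.6% of all windows. Genes of this set are known as HIF targets, and their windows were richer in G and C (median 60.4%, against 52.4%), so these shares describe the set only. Adm and Bnip3, which fell, and Egln3 and Slc2a1, which were not called, all had core letters. These matches are letters, not measured binding.

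The wider pathway was read through 81 further genes in 7 lists by role. Of these, 41 were tested, 6 were higher in SAE and 11 lower, against a called share of 47.6% of all genes tested. Their median log2 fold was −0.04.

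**Figure D4:**
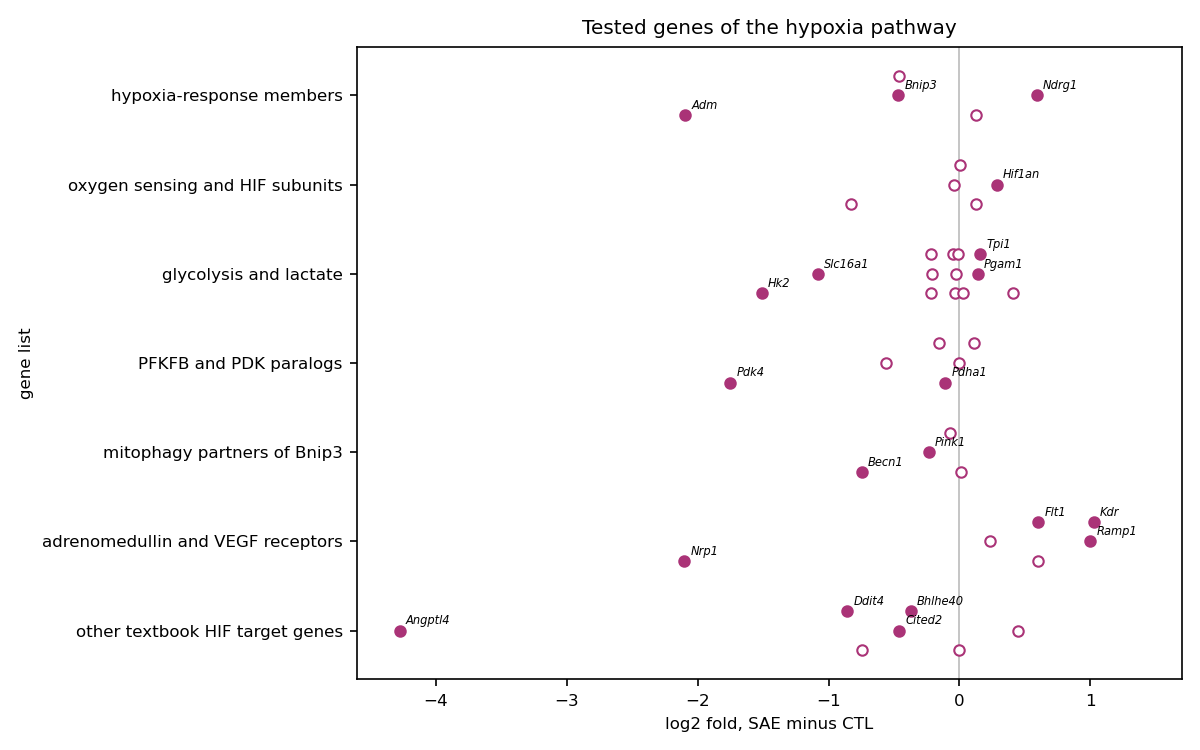
Log2 fold (horizontal axis, SAE minus CTL, 3 libraries each) of each tested gene of the 9 and of the pathway lists (vertical axis, points offset within a list for legibility); filled points passed the adjusted p and are named. Angptl4, Nrp1 and Adm lie furthest below 0, and Kdr and Ramp1 furthest above it.

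Among 11 oxygen-sensing genes, 5 were tested, 1 was higher and 0 were lower. Hif1an encodes FIH, the asparagine hydroxylase that blocks HIF activity, and it rose from 198 ± 6.09 to 243 ± 10.7 CPM (log2 fold 0.28 ± 0.06, adjusted p = 0.000161). Epas1, the gene of HIF-2 alpha, was at 284 ± 20.8 CPM in CTL and 277 ± 18.4 in SAE (−0.04 ± 0.06, adjusted p = 0.591). Vhl was at 193 ± 3.77 and 195 ± 7.37 CPM (adjusted p = 0.921). The hydroxylase gene Egln1, with 2 rows and 3.25 CPM in CTL, was not called (−0.83 ± 0.38 on the log2 scale, adjusted p = 0.0748). Nor was Elob, a subunit of the von Hippel-Lindau ligase (0.12 ± 0.05, adjusted p = 0.0612). Hif1a, Arnt, Arnt2 and Egln2 had at most 3 counts in any library, so the central alpha subunit and its partners could not be read in this table.

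Of 21 glycolysis and lactate genes, 13 were tested, 2 rose and 2 fell (median log2 fold −0.03). Pfkp and Ldhb were at 0 in every library, and Gapdh (1 to 5 counts), Ldha (2 to 9) and Pkm (2 to 7) were near 0. These 5 genes, which include enzymes used by every cell, have 3 to 14 transcript rows. Tpi1 (0.16 ± 0.04, adjusted p = 0.000786) and Pgam1 (0.14 ± 0.04, adjusted p = 0.00564), both enzymes of the pathway, rose by small amounts. Hk2, the inducible hexokinase, fell from 4.03 ± 0.238 to 1.41 ± 0.448 CPM (−1.51 ± 0.38, adjusted p = 0.00204). The other gene that fell, named after its value was seen, was the lactate transporter Slc16a1 (344 ± 77.4 to 163 ± 1.57 CPM, adjusted p = 0.0110).

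Among the paralogs and partners of Pdk1 and Pfkfb3, Pdk2, Pdk3, Pdk4, Pfkfb2 and Pfkfb4 had enough counts for the test. With Pdha1, of 9 such genes, 6 were tested, 0 rose and 2 fell (median −0.13). Pdk4, the pyruvate dehydrogenase kinase raised by fasting and glucocorticoids, fell from 153 ± 20.0 to 45.7 ± 4.51 CPM (−1.75 ± 0.10, adjusted p = 1.61e-11), with 95.9 ± 38.5 CPM in CCLF. Pdha1, the enzyme subunit these kinases act on, fell from 823 ± 28.3 to 769 ± 29.0 CPM (−0.11 ± 0.04, adjusted p = 0.0371) with overlapping groups. Pfkfb4 was not called (−0.56 ± 0.23, adjusted p = 0.0511).

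Of the 7 mitophagy partners of Bnip3, 4 were tested, 0 rose and 2 fell (median −0.15). Pink1, the kinase that senses damaged mitochondria, fell from 1550 ± 13.2 to 1326 ± 35.6 CPM (−0.24 ± 0.04, adjusted p = 6.09e-06). Becn1, an autophagy initiation gene with 4 rows, fell from 9.76 ± 2.18 to 5.83 ± 0.980 CPM (−0.75 ± 0.24, adjusted p = 0.0125). Bnip3l, the closest relative of Bnip3, was at 23.6 ± 0.955 and 22.6 ± 1.52 CPM (adjusted p = 0.694). Of the 3 paralogs of Ndrg1, Ndrg2 and Ndrg3 had 0 counts and Ndrg4 was below the count minimum. These paralogs have 14 or 15 transcript rows each, and the part of read assignment among the rows was not tested.

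On the receiving side, 6 of 11 genes of adrenomedullin and VEGF receptors and relatives were tested, 3 rose and 1 fell (median 0.60). Flt1, a VEGF receptor of endothelium that also acts as a decoy, rose from 111 ± 11.8 to 169 ± 1.47 CPM (0.60 ± 0.07, adjusted p = 1.85e-07). Ramp1, a partner of the calcitonin-like receptor, rose from 8.37 ± 2.07 to 16.9 ± 2.50 CPM (1.00 ± 0.20, adjusted p = 0.000215). The third gene that rose, named after its value was seen, was the signalling VEGF receptor Kdr (1.03 ± 0.24, adjusted p = 0.00109). The co-receptor gene Nrp1 fell from 5.48 ± 2.50 to 1.27 ± 0.383 CPM (−2.10 ± 0.41, adjusted p = 0.000156). These 4 genes have 3 to 6 transcript rows each. Ramp2, a further partner of the calcitonin-like receptor with 1 row, was not called, and its groups overlapped (0.23 ± 0.11, adjusted p = 0.0815). It too was named after its value was seen. Calcrl, the gene of the calcitonin-like receptor, had at most 3 counts in any library.

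Among 19 other HIF target genes, 7 were tested, 0 rose and 4 fell (median −0.46). The lipase inhibitor gene Angptl4 fell from 133 ± 54.3 to 6.90 ± 2.28 CPM (−4.28 ± 0.50, adjusted p = 0.00278). Ddit4, an mTOR inhibitor gene induced by hypoxia and by glucocorticoids, fell from 478 ± 15.8 to 265 ± 40.6 CPM (−0.86 ± 0.10, adjusted p = 0.000446). Cited2, which competes with HIF for its co-activators, fell from 154 ± 13.1 to 113 ± 2.06 CPM (−0.46 ± 0.07, adjusted p = 7.14e-06). The other gene that fell, named after its value was seen, was the transcription factor gene Bhlhe40 (−0.37 ± 0.09, adjusted p = 0.00735). Epo, P4ha1, P4ha2 and Higd1a, which have 2 to 9 transcript rows each, had 0 counts.

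Markers of cell types and of other stimuli moved in these libraries too. Of 8 markers of oligodendrocytes, cells in which Ndrg1 is abundant, 6 were tested, 5 rose and 0 fell. Their summed level was 896 to 981 CPM in CTL and 1342 to 1533 in SAE, with Cldn11 at 437 ± 19.1 and 625 ± 39.4 CPM, Mobp at 254 ± 36.0 and 270 ± 32.9, and Mag at no more than 3 counts. Markers of endothelium, where Slc2a1 and Flt1 are abundant, had 2 of 6 tested, 1 higher and 1 lower: Itm2a rose from 40.9 ± 4.29 to 192 ± 11.6 CPM and Cldn5 fell from 158 ± 16.0 to 76.2 ± 4.97. Their sum was 191 to 213 CPM in CTL and 255 to 277 in SAE, and Pecam1 was at 0. Astrocyte markers had 1 higher and 4 lower of 5 tested of 6, with sums of 3267 to 3535 CPM in CTL and 3417 to 3482 in SAE. Slc1a3 fell from 2945 ± 105 to 2571 ± 22.4 CPM and Gja1 rose from 393 ± 28.4 to 854 ± 30.1. The part of these cell types in the folds of the 9 genes was not tested.

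Glucocorticoid-response genes had 5 lower and 0 higher of 8 tested, where 23.9% of all tested genes were lower. Sgk1 (adjusted p = 0.0655), Tsc22d3 (0.149) and Zbtb16 (0.869), named after their values were seen, were not called. The summed level of the 8 was 3480 to 4615 CPM in CTL and 718 to 850 in SAE. Mt2 held the largest part of the CTL sum. It was at 2730 ± 500 CPM in CTL and 296 ± 24.2 in SAE, and Fkbp5 at 841 ± 17.6 and 335 ± 26.5. Neutrophil markers had 2 lower of 2 tested of 5, with sums of 46.7 to 65.2 CPM in CTL and 1.45 to 2.75 in SAE. Like Lcn2, these 2 were higher in the libraries labelled CTL, which goes against the group names. S100a8 was at 36.0 ± 1.39 CPM in CTL and 0.845 ± 0.735 in SAE, Ngp at 14.1 ± 7.21 and 0.705 ± 0.133, and S100a9 at 0. Microglia markers had 3 higher of 3 tested of 5, with sums of 17.5 to 26.3 and 143 to 152 CPM, with Olfml3 and P2ry13 the most abundant and P2ry12 at 0. Red blood cell markers had 1 lower of 3 tested of 4 (508 to 532 and 408 to 512 CPM, Hbb-bs and Hba-a1 the most abundant, Alas2 at 0), and choroid plexus markers 1 higher of 5 tested of 6 (529 to 835 and 706 to 1421 CPM, Kl and Clic6 the most abundant). These shifts ran beside the lower Adm, Bnip3, Pdk4 and Ddit4 and the higher Ndrg1, and their part in them was not tested. The markers at 0 (Spink8, Pecam1, S100a9, P2ry12 and Alas2) have 2 to 4 transcript rows each.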

How the data were processed

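RNA of hippocampus from 9 mice (3 CTL, 3 SAE, 3 CCLF) was sequenced. The authors deposited 1 table of whole-number counts per RefSeq transcript. Fastp and Salmon are listed in the submitters' processing notes; the sources used here give no version, setting, index or build. All 120312 rows were matched to symbols with the RefSeq table of GRCm38.p6, used for names only, and summed per symbol. The 3 CTL and 3 SAE libraries were filtered with edgeR's filterByExpr (minimum count 10), TMM-normalised (factors 0.983 to 1.021), and fitted with edgeR's robust quasi-likelihood F test, Benjamini-Hochberg adjusted over 8213 genes. Dividing the absolute log2 fold by the root of F gave the SE. CPM uses factors from all 9 libraries. The fit was tested on simulated data. Floors are 3 counts, and exact binomial intervals (95%) cover counting error only.

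The genes and lists were chosen with earlier results of these data known. Named from each pathway list were up to 3 tested genes with the smallest p-values plus Hif1a, Epas1, Egln1 and Vhl, from each marker list the 2 most abundant, and Lcn2. Of the list genes, 2 are not reported here and were left out of the list counts. Alternatives were limma-voom, DESeq2 (its Wald test, and its size factors within edgeR), 2 other filters, all 9 libraries, replicate block, genes with 1 transcript, transcript rows, and leaving out each library. Software was matplotlib 3.10.9, pandas 2.3.3, numpy 2.4.6, Python 3.11.15, DESeq2 1.42.0, limma 3.58.1, edgeR 4.0.16 and R 4.3.3.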

Additional observations from a re-analysis of the deposited data

How the results depend on the processing

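The calls of Adm, Bnip3 and Ndrg1 and the absence of a call for Egln3 held under the 15 alternatives run for each, and no fold of the 5 tested genes changed sign. Slc2a1 changed its call in 1 of 14, the fit of all 9 libraries (adjusted p = 0.0239, range over its alternatives 0.0239 to 0.174), which takes part of its spread from the CCLF columns, where SDs under 0.2 of counting error were more frequent. The number of the 9 genes called higher was 2 in place of 1 with no filter and with 1 CPM in 3 libraries, and 1 to 2 with a library left out; the added gene is Pdk1, which then entered the test and was called without CTL replicate 2, CTL replicate 3 or SAE replicate 3. Over all genes, 3912 calls among 8213 tested genes became 2565 (1281 higher, 1284 lower) among 4776 when only genes with 1 transcript were fitted. The number of genes tested fell with it, and the share of them called did not fall. With the replicate block 3892 genes and 3 of the 5 were called. Replicate numbers did not pair the libraries: deviations of same-numbered CTL and SAE libraries correlated at 0.026, −0.013 and 0.023, and not every library correlated best with its own number. DESeq2 size factors moved the median log2 fold of all genes from 0.005 to 0. Vegfa, Pfkfb3 and Hif3a stayed below the count minimum wherever one was applied, and Pdk1 was below the minimum of the reported fit. The parts of depth and of read assignment among the 3 to 14 rows of these genes were not tested.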
